A study of Mus musculus with 6 samples.

Results

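Collagen chain genes encode the polypeptides that wind around each other into collagen molecules. They were taken here as the rows whose symbol is "Col", a number, "a" and a number, which gave 42 of the 20327 gene symbols in the tables. By class, 10 are fibrillar, 6 belong to the basement membrane, 6 to type VI and 9 to the FACIT group (fibril-associated collagens with interrupted helices), and 11 are other collagens. *Col2a1*, *Col10a1* and *Col21a1* were not analysed here.

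The libraries came from colon stroma of C57BL/6 mice with the genotype *Il11-Egfp*, a bacterial artificial chromosome transgene in which the *Il11* promoter drives EGFP. The mice, 9 to 15 weeks of age and male according to the methods, drank 1.5% dextran sulfate sodium (DSS) for 5 days and then plain water, and their colons were taken on day 7. DAPI-negative cells without the lineage markers CD45, CD31, EpCAM and Ter119 were sorted into IL-11⁺ (EGFP⁺, labelled EGFP-Positive) and IL-11⁻ (EGFP⁻, labelled EGFP-Negative) cells, with 3 libraries in each group. The gate holds no positive marker of fibroblasts, both groups carry the transgene and received DSS, and untreated mice were not analysed here. The methods name 3 mice, but nothing says which mouse each library came from, so p-values measure the spread between these samples.

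RNA was read by 5′Tag-seq, which counts tags from the 5′ side of polyA transcripts. Such counts are not per transcript length. Sums, ratios and leading genes given here therefore describe tags, and do not rank the expression of different genes. Libraries held 1057170, 1078179 and 1169817 tags in EGFP⁻ replicates 1, 2 and 3 and 1046538, 1022851 and 1049048 tags in EGFP⁺ replicates 1, 2 and 3. A floor of 3 tags stands at 2.56 to 2.93 CPM (counts per 1e+06 tags of a library), and floors and counting intervals cover counting error only. *Il11* itself, as a check of the labels, had 28, 51 and 89 tags in EGFP⁻ and 1357, 732 and 2658 tags in EGFP⁺ libraries, with no overlap between the groups.

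Fibrillar collagens (types I, III and V among them) assemble into the cross-striated fibrils that give tissue its tensile strength, while type IV chains build the sheet-like network of basement membranes. Type VI forms beaded microfilaments around cells, and FACIT molecules sit on the surface of fibrils and link them to other matrix. In the gut wall, fibroblasts and smooth muscle cells are known sources of collagen, and collagen is laid down as an injured mucosa is rebuilt.

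The quasi-likelihood test of edgeR, adjusted by Benjamini-Hochberg, was run over the 9334 genes that reached 10 tags in 3 or more of the 6 libraries. Genes are called higher or lower here where the adjusted p is below 0.05 and the fold change exceeds 2. Normalized CPM are CPM of the tested genes after scaling by TMM, which corrects for differences in composition. Of the 42 collagen chains, 25 passed the filter. Among these, 8 were higher in EGFP⁺ cells (*Col3a1*, *Col5a1*, *Col5a2*, *Col4a1*, *Col4a2*, *Col12a1*, *Col18a1* and *Col7a1*), where 3.44% of all tested genes were higher (321 of 9334). Another 5 were lower (*Col14a1*, *Col20a1*, *Col6a4*, *Col6a5* and *Col23a1*), where 6.37% of all tested genes were lower (595 of 9334). The remaining 12 were not called, and for 2 of these, *Col5a3* and *Col27a1*, the adjusted p was under 0.05 with a fold change below 2. The EGFP⁺ libraries all lay above the EGFP⁻ libraries for 10 of the 25 chains (14.5% of all tested genes) and all below them for 4 (16.7% of all tested genes). The median log2 fold change, EGFP⁺ over EGFP⁻, was 0.38 over the 25 chains (0.22 to 0.49 with 1 library left out) and -0.01 over all tested genes. With no filter, where chains with few tags enter, the median over all 42 chains was -0.22. *Col7a1* and *Col20a1* reached 10 tags in libraries of their higher group alone, so these had to differ once they passed the filter.

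These counts moved when single libraries were left out. Without EGFP⁺ replicate 1, 4 collagen chains were higher (*Col12a1*, *Col18a1*, *Col3a1* and *Col5a1*) and 2 were lower (*Col14a1* and *Col6a5*). Without EGFP⁻ replicate 1, 2 or 3, 3 chains were lower each time. The count of lower genes over all tested genes was 341 without EGFP⁻ replicate 1 and 355 without EGFP⁻ replicate 2, where fewer genes pass the filter, and 483 and 508 on the 9334 genes that pass it with all 6 libraries, an alternative chosen after seeing the data. When tags were scaled by library size alone, 5 chains were higher, because *Col3a1*, *Col5a1* and *Col5a2* came to lie just below a fold change of 2, and the median of all tested genes was then -0.10.

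**Figure D1:**
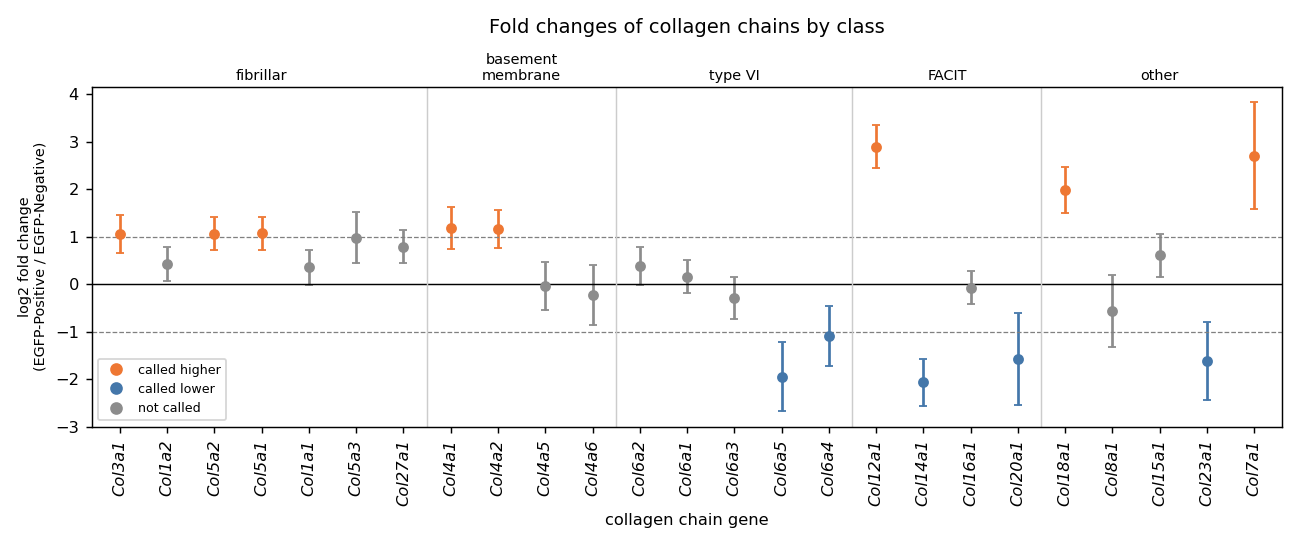
Log2 fold change (EGFP⁺ over EGFP⁻, vertical axis) of the 25 tested collagen chains, grouped by class, with 95% intervals from the standard errors of edgeR's fit. Orange points are the 8 chains called higher, blue points the 5 called lower and grey points the 12 not called, and dashed lines mark a fold change of 2. Higher and lower chains both occur among the tested FACIT and other collagens. No tested fibrillar or basement membrane chain was lower, and no tested type VI chain was higher. Over all tested genes 3.44% were higher and 6.37% lower, so these absences in small classes are not read as traits of a class. *Col4a4*, a basement membrane chain under the filter, was called lower with no filter.

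Markers of other cells of the colon wall differed between the groups as well. Their counts stand beside 3.44% higher and 6.37% lower over all tested genes. The 9 smooth muscle and myofibroblast markers were all lower in EGFP⁺ cells, with summed levels of 2735, 3372 and 4233 normalized CPM in EGFP⁻ and 107.0, 177.7 and 359.5 in EGFP⁺ replicates 1 to 3, and *Myh11* had the most tags. Of 7 tested pericyte markers 4 were lower, with sums of 2686, 2303 and 2114 against 1076, 902.6 and 803.9. In the EGFP⁻ libraries most of this level came from *Rgs5*, and the sums of the other 7 markers in the tables, 823, 701 and 635.5 against 878.6, 726 and 607.5, overlapped. *Kcnj8* and *Abcc9* pointed the other way, with log2 fold changes of 0.71 (adjusted p = 0.0394) and 0.66 (adjusted p = 0.0167), short of the fold threshold. The 3 markers of interstitial cells of Cajal were lower too, summing to 271.2, 167.7 and 257.8 against 21.2, 20.3 and 50.5, led by *Ano1*. *Cnn1*, *Notch3* and *Kit* of these lists reached 10 tags in EGFP⁻ libraries alone, so these had to differ once they passed the filter. Their part in the collagen results was not tested, and in bulk libraries fewer cells of a type cannot be told apart from less RNA per cell.

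The gate removes endothelial cells, epithelial cells and leukocytes, and their markers were sparse. Mesothelial markers, which the gate does not name, were sparse too. For endothelial cells 6 markers in the tables summed to 43.0, 26.4 and 37.8 normalized CPM in EGFP⁻ and 18.0, 8.12 and 7.63 in EGFP⁺ libraries, mostly from *Tek*, while *Pecam1* (CD31) had 1 tag in all libraries together. The 8 epithelial markers summed to 31.5, 25.4 and 51.7 against 9.54, 13.2 and 21.9, led by *Lgals4*, with *Epcam* at 2 tags in all. *Tek* and *Lgals4* were the tested genes of these lists and both were lower in EGFP⁺ cells. None of the 9 leukocyte markers passed the filter, and they summed to 22.0, 22.6 and 18.1 against 41.3, 19.3 and 17.2, led by *Cd68*. None of the 4 mesothelial markers passed either, with sums of 13.4, 4.71 and 15.6 in EGFP⁻ libraries and of 0, 0 and 1.91 in EGFP⁺ libraries, led by *Wt1*. The 9 fibroblast markers all passed the filter, and 1 was higher (*Pdpn*) and 1 lower (*Mfap5*). With 3.44% of all tested genes higher and 6.37% lower, these single calls are not read as a result about the list. The sums of the 9 markers were 19930, 18050 and 19300 in EGFP⁻ and 31100, 22360 and 19570 in EGFP⁺ libraries, with the most tags in *Dcn*. Without *Dcn* the other 8 summed to 6538, 7102 and 7388 against 4928, 5269 and 5182, in the opposite direction and without overlap. *Dcn* and *Thy1* had log2 fold changes of 0.67 (adjusted p = 0.0462) and 0.88 (adjusted p = 0.00832), while *Lum*, *Dpt* and *Fbln1* were at -0.64, -0.96 and -0.71 (adjusted p = 0.0378, 8.26e-04 and 0.0171), all short of the fold threshold, and the median over the list was -0.27. The part of these markers in the collagen results was not tested.

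**Figure D2:**
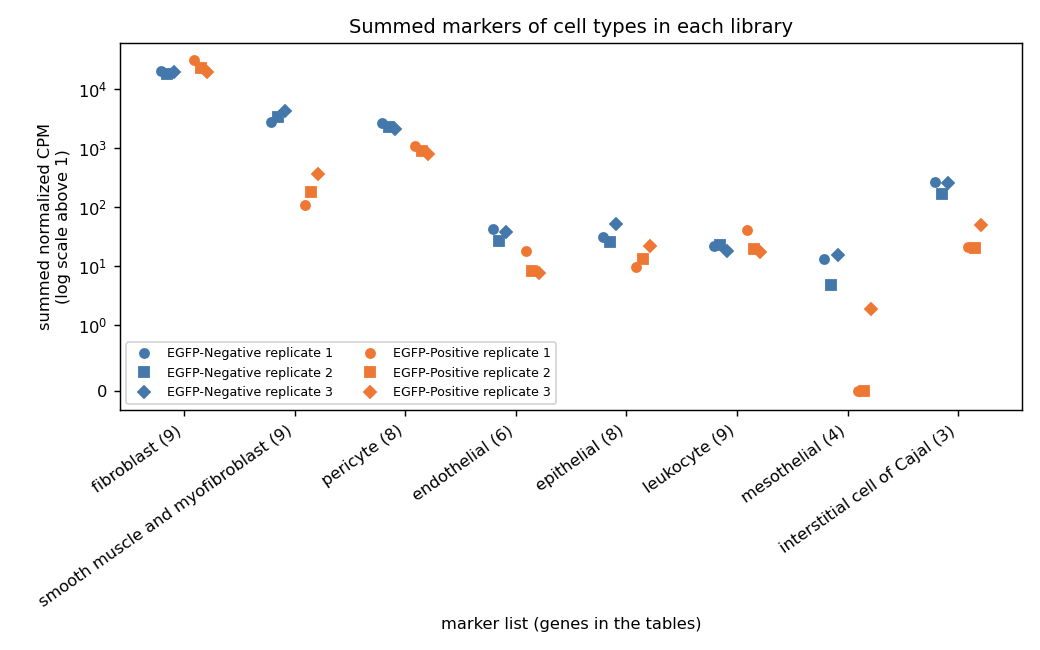
Summed normalized CPM of cell type markers (vertical axis, logarithmic above 1 and linear below) in each of the 6 libraries, with the number of marker genes in the tables in brackets. Smooth muscle and myofibroblast markers lie between 2735 and 4233 in the EGFP⁻ libraries and between 107.0 and 359.5 in the EGFP⁺ libraries. The fibroblast sums, led by *Dcn*, lie between 18050 and 19930 in EGFP⁻ and between 19570 and 31100 in EGFP⁺ libraries. Without *Dcn* the other 8 fibroblast markers sum to 6538 to 7388 in EGFP⁻ and 4928 to 5269 in EGFP⁺ libraries, in the opposite direction.

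Of the 7 tested fibrillar chains, 3 rose in EGFP⁺ cells and none fell, where 3.44% of all tested genes were higher and 6.37% lower. With so few chains, the absence of a lower one is near that share and is not read as a trait of the class. The median log2 fold change was 0.98. *Col3a1* encodes the chain of type III collagen, which is plentiful in elastic and healing tissue (chromosome 1, 45311538 to 45349706 in GRCm38). It stood at 3136, 4444 and 5525 normalized CPM in EGFP⁻ and at 9135, 9184 and 8707 in EGFP⁺ replicates 1 to 3. The 3 EGFP⁺ libraries lay close together and above the highest EGFP⁻ library, and the EGFP⁻ libraries were more spread. The mean rose from 4368 ± 1197 to 9008 ± 262.4 (SD, n = 3), which is 1.04 on the log2 scale (SE 0.204, adjusted p = 0.00134). Without EGFP⁻ replicate 1, the lowest library, the log2 fold change was 0.83 (adjusted p = 0.0231) and the fold change no longer exceeded 2.

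Type V chains are incorporated into fibrils of type I collagen and limit their diameter. *Col5a1* (chromosome 2, 27886425 to 28039514) was at 380.0, 466.4 and 459.8 normalized CPM in EGFP⁻ and at 852.1, 1074 and 810.6 in EGFP⁺ libraries. *Col5a2* (chromosome 1, 45374321 to 45503282) was at 483.1, 469.2 and 475.4 in EGFP⁻ and at 1137, 1053 and 794.4 in EGFP⁺ libraries. For neither gene did the groups overlap, and the lowest EGFP⁺ library was replicate 3 for both. *Col5a1* rose by 1.07 on the log2 scale (SE 0.173, adjusted p = 2.4e-04) and *Col5a2* by 1.06 (SE 0.173, adjusted p = 2.45e-04). Both estimates are near the threshold of 2-fold. That of *Col5a1* was 0.96 without EGFP⁻ replicate 1 and 0.94 without EGFP⁺ replicate 2, and that of *Col5a2* was 0.97 without EGFP⁺ replicate 1, so that each call ended there. The ratio of *Col5a1* to *Col5a2* tags was 0.787, 0.994 and 0.967 in EGFP⁻ and 0.749, 1.02 and 1.02 in EGFP⁺ libraries, and its values overlapped between the groups. *Col5a2* and *Col3a1* are neighbours that face each other tail to tail, with 24614 bases between them.

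*Col5a3*, a further type V chain, had 88, 102 and 106 tags in EGFP⁻ and 207, 225 and 84 tags in EGFP⁺ libraries. EGFP⁺ replicate 3 lay just below the EGFP⁻ libraries, while the other two EGFP⁺ libraries stood well above them. Its log2 fold change was 0.98 (SE 0.274, adjusted p = 0.0193), short of the fold threshold, and 1.33 without EGFP⁺ replicate 3 (adjusted p = 2.7e-05), where it was called. *Col27a1*, a fibrillar chain best known from cartilage, had 65, 71 and 88 tags against 100, 135 and 111, with the EGFP⁺ libraries above the others and a difference of 0.79 on the log2 scale (SE 0.181, adjusted p = 0.00482).

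The type I chains, the main component of most fibrils, were not called. *Col1a2* was at 1967, 2532 and 2812 normalized CPM in EGFP⁻ and at 2817, 3554 and 3442 in EGFP⁺ libraries, so that the lowest EGFP⁺ library lay just above the highest EGFP⁻ library. *Col1a1* was at 381.9, 624.7 and 568.2 in EGFP⁻ and at 590.4, 782.8 and 635.1 in EGFP⁺ libraries, and here the groups overlapped. The log2 fold changes were 0.42 for *Col1a2* (95% interval 0.06 to 0.79, adjusted p = 0.14) and 0.35 for *Col1a1* (95% interval -0.03 to 0.73, adjusted p = 0.263). Since type I collagen is assembled from both chains, their ratio was also read. It was 5.15, 4.05 and 4.95 *Col1a2* tags per *Col1a1* tag in EGFP⁻ and 4.77, 4.54 and 5.42 in EGFP⁺ libraries, and the groups overlapped. The ratio of *Col3a1* to *Col1a1* tags was 8.21, 7.11 and 9.72 in EGFP⁻ and 15.5, 11.7 and 13.7 in EGFP⁺ libraries, and every EGFP⁺ value was above every EGFP⁻ value. This ratio was not tested.

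**Figure D3:**
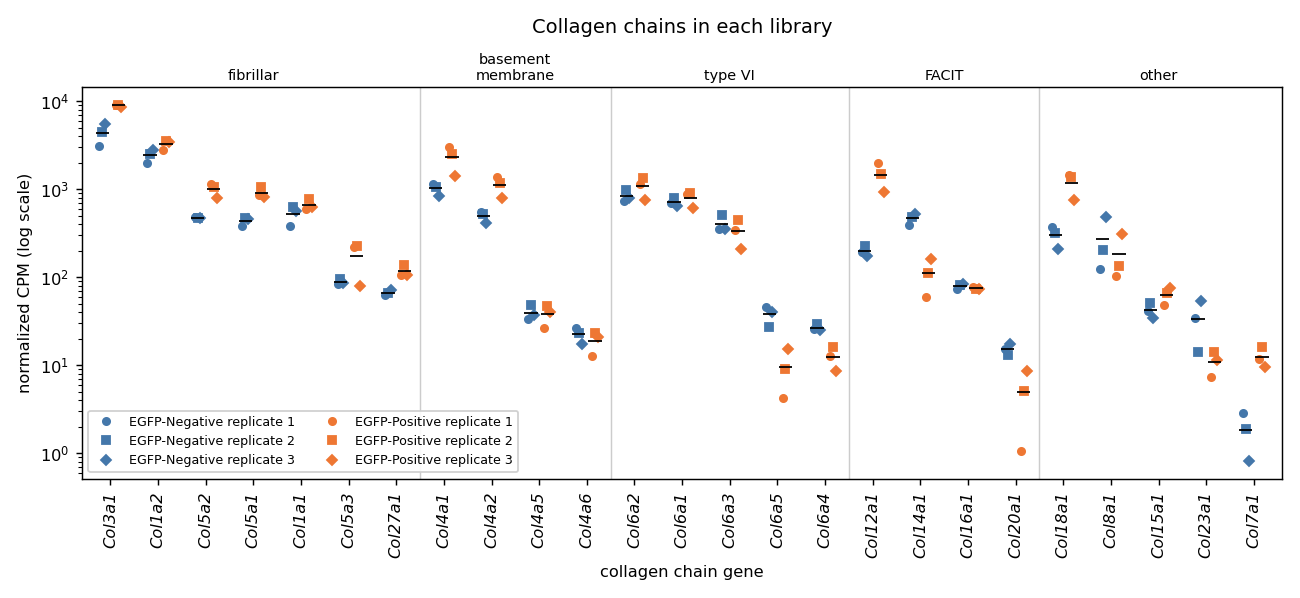
Normalized CPM (logarithmic axis) of the 25 tested collagen chains in each of the 6 libraries, grouped by class, with EGFP⁻ libraries in blue, EGFP⁺ libraries in orange, replicate numbers as symbols and group means as black bars. *Col12a1* lies between 172.4 and 225.2 in EGFP⁻ and between 942.2 and 1973 in EGFP⁺ libraries, and *Col14a1* between 390.5 and 523.9 in EGFP⁻ and between 59.4 and 160.2 in EGFP⁺ libraries.

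Of the 4 tested basement membrane chains 2 were higher in EGFP⁺ cells and none was lower (3.44% and 6.37% of all tested genes). The absence of a lower chain is near that share for so few genes. The median log2 fold change was 0.55. With no filter the median over all 6 chains was -0.10, and *Col4a4* was called lower. *Col4a1* and *Col4a2* encode the chains of the type IV molecule that is found in nearly all basement membranes. *Col4a1* (chromosome 8, 11198423 to 11312826) was at 1162, 1072 and 838.4 normalized CPM in EGFP⁻ and at 3029, 2516 and 1424 in EGFP⁺ libraries. *Col4a2* (chromosome 8, 11312805 to 11449287) was at 558.6, 526.7 and 417.1 in EGFP⁻ and at 1384, 1171 and 792.5 in EGFP⁺ libraries. The groups did not overlap for either, and replicate 3 was the lowest library of both groups for both genes. *Col4a1* rose by 1.18 on the log2 scale (SE 0.23, adjusted p = 0.0013) and *Col4a2* by 1.16 (SE 0.202, adjusted p = 4.76e-04). Without EGFP⁺ replicate 1 the log2 fold changes were 0.96 and 0.98 (adjusted p = 0.0066 and 0.00263), and neither exceeded a fold change of 2. The *Col4a1* to *Col4a2* tag ratio stayed within 2.01 to 2.08 over the EGFP⁻ libraries and was 2.19, 2.15 and 1.80 in the EGFP⁺ libraries.

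The remaining type IV chains make up the molecules of specialised basement membranes. *Col4a5* had 35, 51 and 45 tags in EGFP⁻ and 25, 47 and 42 in EGFP⁺ libraries, and *Col4a6* had 28, 25 and 21 against 12, 23 and 22. The groups overlapped for both. The log2 fold changes were -0.05 for *Col4a5* (95% interval -0.55 to 0.46, adjusted p = 0.938) and -0.23 for *Col4a6* (95% interval -0.85 to 0.40, adjusted p = 0.712). The estimate of *Col4a5* changed sign without EGFP⁻ replicate 2 (0.10) and without EGFP⁺ replicate 1 (0.16). *Col4a4* and *Col4a3* fell short of the filter, with 4, 2 and 8 tags and with 0, 4 and 2 tags in EGFP⁻ libraries and none in EGFP⁺ libraries. Of the 14 *Col4a4* tags 8 came from EGFP⁻ replicate 3.

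The type IV genes are arranged head to head in the genome. By the GENCODE annotation of GRCm38, the transcripts of *Col4a1* (minus strand) and *Col4a2* (plus strand) overlap by 22 bases at their starts, those of *Col4a4* and *Col4a3* begin 71 bases apart on chromosome 1, and those of *Col4a6* and *Col4a5* 1308 bases apart on chromosome X. Both genes of the first pair rose, those of the second were not tested and those of the third were not called. The 22 bases shared by the *Col4a1* and *Col4a2* starts (chr8:11312805-11312826, plus strand, GRCm38, inside the first exon of both) are shown because these genes moved together, with the letters of a GC box (GGGCGG) in capitals.
Col4a1/Col4a2 shared start: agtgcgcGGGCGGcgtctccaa

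In type VI, 2 of 5 tested chains fell in EGFP⁺ cells and none rose, where 6.37% of all tested genes were lower and 3.44% higher. The absence of a higher chain is near that share for so few genes. The median log2 fold change of the class was -0.30. With 1 library left out this median ranged from -0.55 (without EGFP⁺ replicate 2) to -0.052 (without EGFP⁺ replicate 3), and with no filter the median over all 6 chains was -0.66. *Col6a1*, *Col6a2* and *Col6a3* encode the chains of the usual type VI molecule. *Col6a2* had 766, 1049 and 969 tags in EGFP⁻ and 1091, 1329 and 802 in EGFP⁺ libraries, *Col6a1* had 739, 851 and 777 against 827, 889 and 646, and *Col6a3* had 373, 544 and 433 against 324, 435 and 220. In each of these genes the groups overlapped, and the lowest EGFP⁺ library was replicate 3. The log2 fold changes were 0.38 (95% interval -0.02 to 0.77), 0.16 (-0.19 to 0.51) and -0.30 (-0.74 to 0.14), with adjusted p of 0.247, 0.633 and 0.445.

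*Col6a4*, *Col6a5* and *Col6a6* encode chains that resemble that of *Col6a3* and can take its place in the molecule. They lie next to each other on the minus strand of chromosome 9, with 27917 bases between *Col6a6* and *Col6a5* and 28810 between *Col6a5* and *Col6a4*. *Col6a5* had 48, 29 and 49 tags in EGFP⁻ and 4, 9 and 16 in EGFP⁺ libraries. *Col6a4* had 27, 31 and 31 tags against 12, 16 and 9, and *Col6a6*, which was not tested, had 1, 5 and 1 against none. The groups did not overlap for *Col6a5* and *Col6a4*, and 5 of the 7 *Col6a6* tags came from 1 library. *Col6a5* fell by 1.95 on the log2 scale (SE 0.37, adjusted p = 9.58e-04), from 37.8 ± 9.49 to 9.54 ± 5.52 normalized CPM (SD, n = 3). *Col6a4* fell by 1.10 (SE 0.321, adjusted p = 0.0238), from 26.8 ± 2.08 to 12.5 ± 3.83. This second call is weak. Its adjusted p was 0.0531 and 0.0941 without EGFP⁻ replicates 1 and 2 (log2 fold changes -1.14 and -1.04). It was 0.0598 and 0.103 without EGFP⁺ replicates 1 and 3 (-1.10 and -0.88), and 0.0813 with DESeq2 (-1.09).

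FACIT collagens held the chains with the smallest adjusted p in each direction among the 25 tested. Of 4 tested chains 1 rose and 2 fell (3.44% and 6.37% of all tested genes), with a median log2 fold change of -0.83. This median rests on *Col20a1*, which misses the filter once 1 EGFP⁻ library is left out. The median over the remaining 3 chains was -0.15, -0.070 and -0.059 without EGFP⁻ replicates 1, 2 and 3, and with *Col20a1* kept (the genes that pass the filter with all 6 libraries) it was -0.86, -0.86 and -0.76. *Col12a1* (chromosome 9, 79598991 to 79718831) encodes type XII collagen, a fibril-surface molecule of tissue under mechanical load. It had 203, 239 and 210 tags in EGFP⁻ and 1862, 1465 and 988 in EGFP⁺ libraries. Every EGFP⁺ library was far above every EGFP⁻ library, and the EGFP⁺ libraries differed among themselves more than the EGFP⁻ libraries did. The mean rose from 197.1 ± 26.5 to 1468 ± 515.9 normalized CPM (SD over 3 libraries), or by 2.90 on the log2 scale (SE 0.236, adjusted p = 1.16e-07).

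*Col14a1* (chromosome 15, 55307750 to 55520803) encodes type XIV collagen, another fibril-surface molecule of the same group. It had 409, 517 and 638 tags in EGFP⁻ and 56, 111 and 168 in EGFP⁺ libraries. The groups were far apart, in the direction opposite to *Col12a1*. *Col14a1* fell by 2.07 on the log2 scale (SE 0.251, adjusted p = 1.11e-05), from 467.2 ± 68.9 to 110.8 ± 50.5 normalized CPM. The ratio of *Col12a1* to *Col14a1* tags was 0.496, 0.462 and 0.329 in EGFP⁻ and 33.2, 13.2 and 5.88 in EGFP⁺ libraries. In each group it was highest in replicate 1 and lowest in replicate 3, and the groups did not overlap. The ratio was chosen after the values were seen and was not tested.

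*Col16a1*, a further FACIT chain, had 77, 87 and 102 tags in EGFP⁻ and 74, 73 and 78 in EGFP⁺ libraries, which overlapped after normalization (log2 fold change -0.08, 95% interval -0.42 to 0.27, adjusted p = 0.834). *Col20a1*, a FACIT chain with few tags here, had 16, 14 and 21 tags in EGFP⁻ and 1, 5 and 9 in EGFP⁺ libraries, without overlap. It fell by 1.59 on the log2 scale (SE 0.493, adjusted p = 0.0324), and its summed tags, 51 against 15, correspond to a level 3.04-fold lower in EGFP⁺ cells with a 95% counting interval of 1.68 to 5.83. The call ended without EGFP⁺ replicate 1 (log2 fold change -1.13, adjusted p = 0.123) or EGFP⁺ replicate 2 (-1.59, adjusted p = 0.0784). It also ended with DESeq2 (-1.60, adjusted p = 0.0735), and without EGFP⁺ replicate 3 the value was -2.25. On the genes that pass the filter with all 6 libraries the call ended without EGFP⁻ replicate 1, 2 or 3 as well (adjusted p = 0.0796, 0.0615 and 0.0906). The log2 fold changes were then -1.59, -1.67 and -1.48. Of its 5′ windows of 50 nt, 3.98% also occur in transcripts of another annotated gene, and 6.72% of those of *Col3a1* do, while the other 23 tested chains share none.

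Among the other collagens 5 chains were tested, 2 were higher and 1 was lower (3.44% and 6.37% of all tested genes). The median log2 fold change was 0.60. This median, the value of *Col15a1*, rests on *Col7a1*, which misses the filter once 1 EGFP⁺ library is left out. The middle values were then *Col8a1* and *Col15a1*. They were at -0.28 and 0.77 without EGFP⁺ replicate 1, -0.38 and 0.59 without replicate 2, and -1.20 and 0.46 without replicate 3. With *Col7a1* kept (the genes that pass the filter with all 6 libraries), *Col15a1* was the median, at 0.77, 0.58 and 0.45. *Col18a1* (chromosome 10, 77052178 to 77166548) encodes type XVIII collagen, a heparan sulfate-bearing collagen of basement membranes whose end fragment is endostatin. It had 395, 341 and 254 tags in EGFP⁻ and 1366, 1346 and 784 in EGFP⁺ libraries. The groups did not overlap, and replicate 3 was the lowest library of each group, as for the type IV pair. *Col18a1* rose from 302.3 ± 85.9 to 1187 ± 382.9 normalized CPM (SD over 3 libraries), or by 1.98 on the log2 scale (SE 0.246, adjusted p = 1.45e-05). Its closest relative *Col15a1*, which encodes the other collagen of this basement membrane family, had 43, 54 and 42 tags against 46, 65 and 80. There the groups overlapped, and the log2 fold change was 0.60 (95% interval 0.15 to 1.05, adjusted p = 0.0872).

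*Col7a1* encodes the chain of the anchoring fibrils that tie basement membranes to the tissue below. It had 3, 2 and 1 tags in EGFP⁻ and 11, 16 and 10 in EGFP⁺ libraries. All EGFP⁻ libraries were at or under the floor of 3 tags, and the summed tags, 6 against 37, correspond to a level 6.89-fold higher in EGFP⁺ cells with a 95% counting interval of 2.88 to 20.0. The log2 fold change was 2.70 (SE 0.574, adjusted p = 0.00207). *Col7a1* reached 10 tags in EGFP⁺ libraries alone, so it had to differ once it passed the filter. Its interval and p-value describe the tags and are no test of a difference. Once 1 EGFP⁺ library was left out, the gene no longer passed the filter. *Col23a1*, a transmembrane collagen, had 36, 15 and 65 tags in EGFP⁻ and 7, 14 and 12 in EGFP⁺ libraries. EGFP⁻ replicate 2 lay at the level of the EGFP⁺ libraries while the other two EGFP⁻ libraries stood higher. It fell by 1.62 on the log2 scale (SE 0.422, adjusted p = 0.0116), a call that ended without EGFP⁻ replicate 3 (log2 fold change -1.14, adjusted p = 0.0989) or EGFP⁺ replicate 1 (-1.41, adjusted p = 0.0559).

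*Col8a1*, a short-chain collagen that forms networks, had 131, 219 and 590 tags in EGFP⁻ and 97, 132 and 329 in EGFP⁺ libraries. Replicate 3 was the highest library of both groups, and the groups overlapped. The log2 fold change was -0.57 (95% interval -1.33 to 0.19, adjusted p = 0.39). It was 0.13 without EGFP⁻ replicate 3 (adjusted p = 0.856) and -1.20 without EGFP⁺ replicate 3 (adjusted p = 0.0331, called lower), which breaks up the pair of libraries numbered 3. Within each number the EGFP⁺ library was the lower one, at 102.8 against 125.1, 134.0 against 206.3 and 313.8 against 484.5 normalized CPM. With the number as a block in the fit, the log2 fold change was -0.53 (SE 0.153, adjusted p = 0.00851), short of the fold threshold.

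The 17 chains that were not tested had few tags. *Col28a1* was the exception, with 19, 4 and 23 tags in EGFP⁻ and 1, 2 and 3 in EGFP⁺ libraries, which did not overlap. Its summed tags correspond to a level 6.86-fold lower in EGFP⁺ cells with a 95% counting interval of 2.92 to 19.7. The highest count in any library was 9 for *Col24a1*, 8 for *Col4a4*, 6 for *Col13a1* and *Col8a2*, and 5 for *Col6a6* and *Col22a1*. It was 4 for *Col11a1*, *Col11a2*, *Col4a3* and *Col9a3*, 3 for *Col19a1*, 2 for *Col17a1* and *Col26a1*, and 1 for *Col9a1*, *Col9a2* and *Col25a1*. With no filter, *Col28a1* and *Col4a4* were called lower and *Col5a3* higher. No difference is read here from the 10 chains whose highest count was under 5.

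Summed over all 42 chains, collagen levels were 11430, 14170 and 14790 normalized CPM in EGFP⁻ and 25450, 25780 and 20830 in EGFP⁺ libraries, a ratio of means of 1.78. The sums of fibrillar chains were 6500, 8709 and 10010 against 14870, 16020 and 14580, led by *Col3a1*. Those of basement membrane chains were 1785, 1676 and 1318 against 4453, 3758 and 2277. The groups did not overlap in either class. For type VI the sums overlapped, at 1866, 2364 and 1856 against 2393, 2719 and 1615. The FACIT sums, 676.0, 816.9 and 798.1 against 2112, 1686 and 1187, did not overlap. In that class the sum was higher in EGFP⁺ cells although *Col14a1* fell, with *Col12a1* making up most of the tags of the class in EGFP⁺ libraries. *Col20a1*, the other chain called lower, had to differ once it passed the filter.

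Collagen chains are modified, folded and cross-linked by other proteins. Of 30 tested genes of a list of such factors, 4 were higher in EGFP⁺ cells, 2 were lower and 24 were not called, with a median log2 fold change of 0.25. The higher genes were 13.3% of the list, against 3.44% of all tested genes, and the lower genes 6.67%, near the 6.37% of all tested genes. Higher genes of the list were *Loxl2* and *Lox*, which encode enzymes that cross-link collagen, *P3h1*, which encodes a prolyl 3-hydroxylase, and *Fkbp10*, which encodes a chaperone of procollagen. *Loxl2* rose from 287.1 ± 41.2 to 626.7 ± 129.5 normalized CPM (log2 fold change 1.13, SE 0.186, adjusted p = 2.81e-04), without overlap between the groups. *Lox* rose from 338.1 ± 126.4 to 698.7 ± 228.3 (1.05, SE 0.248, adjusted p = 0.00614), and here the groups overlapped. *Fkbp10* rose from 37.5 ± 7.42 to 80.2 ± 18.3 (1.08, SE 0.229, adjusted p = 0.00249), without overlap. *P3h1* rose from 26.9 ± 7.29 to 54.5 ± 8.98 (1.003, SE 0.251, adjusted p = 0.00916), also without overlap. The calls of *Lox*, *Fkbp10* and *P3h1* were close to the fold threshold. That of *Lox* ended without EGFP⁻ replicate 2 (0.89), EGFP⁻ replicate 3 (0.88) or EGFP⁺ replicate 1 (0.80), and that of *Fkbp10* without EGFP⁻ replicate 1 (0.97) or EGFP⁺ replicate 1 (0.98). That of *P3h1* ended without EGFP⁻ replicate 1 (0.86) or 2 (0.90) and without EGFP⁺ replicate 2 (0.98) or 3 (0.90), and with iterative TMM, with either test (0.99). Scaling by library size alone ended all 3 (0.95, 0.99 and 0.92).

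*Pcolce2*, which encodes an enhancer of the protease that cuts off procollagen ends, was one of the 2 lower genes of this list and fell by 2.73 on the log2 scale (SE 0.272, adjusted p = 1.03e-06), from 65.2 ± 7.01 to 9.70 ± 1.67 normalized CPM. The second, *P3h2*, which encodes another prolyl 3-hydroxylase, fell by 1.40 (SE 0.338, adjusted p = 0.0067), from 31.1 ± 8.45 to 11.8 ± 3.97. Neither gene's groups overlapped. For *P4ha2*, *P4hb*, *Serpinh1* and *Tgm2* the adjusted p was under 0.05 with a fold change below 2 (log2 fold changes 0.70, 0.75, 0.67 and 0.85). Of 9 tested collagen receptors none was higher and 1 was lower (11.1% of so few genes, where 6.37% of all tested genes were lower and 3.44% higher), with a median log2 fold change of -0.01. For *Itga1*, another integrin chain, and *Antxr1* the adjusted p was 0.0119 and 0.0213 with log2 fold changes of 0.95 and 0.57, short of the fold threshold. *Itga11*, which encodes an integrin chain that binds fibrillar collagen, fell by 2.78 (SE 0.512, adjusted p = 6.63e-04), from 21.7 ± 7.23 to 3.07 ± 2.06 normalized CPM. With 24, 30 and 17 tags in EGFP⁻ and 3, 5 and 1 in EGFP⁺ libraries, *Itga11* too passed the filter through its higher group alone. *Itga2*, another collagen-binding integrin chain, had a log2 fold change of 1.08 (adjusted p = 0.0626) and was called without EGFP⁺ replicate 2 (1.33, adjusted p = 0.0299) and with the exact test after iterative TMM (adjusted p = 0.0435).

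Libraries of the groups share the numbers 1 to 3. In a fit with that number as a block, the same 13 collagen chains were called. Chains that were not called in either fit included *Col1a2* and *Col15a1*, whose adjusted p was 0.0128 and 0.0419 with the block and whose fold changes stayed below 2. With the block, *Itga2* was called higher (adjusted p = 0.048).

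Sequences upstream of the transcript starts are shown for chains of different classes that were called. RefSeq promoters of GRCm38.p6 matched 34 of the 42 chains and 10 of the 13 called ones, and *Col12a1*, *Col14a1* and *Col5a2* had no entry. In the 250 bases before each start, 5 motifs were searched on both strands. The TATA box was taken as TATAAA. The CCAAT box was taken as these letters alone. The GC box was searched as GGGCGG. For the AP-1 motif the letters were TGANTCA, where N is any base. The STAT motif was searched as TTCNNNGAA. Of 37 windows of collagen chains 4 held the TATA box, 13 the CCAAT box, 22 the GC box, 1 the AP-1 motif and 2 the STAT motif. Among all 32851 promoter windows the shares were 12.4%, 33.8%, 32.7%, 6.75% and 7.02% in the same order. Of the 11 windows of called chains, 1 held the TATA box, 5 the CCAAT box, 7 the GC box, none the AP-1 motif and 1 the STAT motif. A match describes letters and not a bound site. The windows printed here hold no annotated exon and are written 5′ to 3′ on the strand of the gene, with matches in capitals, also where the match is on the other strand. That of *Col3a1* (chr1:45311288-45311537, plus strand) holds a TATA box and no GC box, that of *Col5a1* (chr2:27886175-27886424, plus strand) holds 2 GC boxes, that of *Col7a1* (chr9:108953336-108953585, plus strand) a CCAAT box and a GC box, and that of *Col6a5* (chr9:105960644-105960893, minus strand) a STAT motif and a GC box.
Col3a1 upstream: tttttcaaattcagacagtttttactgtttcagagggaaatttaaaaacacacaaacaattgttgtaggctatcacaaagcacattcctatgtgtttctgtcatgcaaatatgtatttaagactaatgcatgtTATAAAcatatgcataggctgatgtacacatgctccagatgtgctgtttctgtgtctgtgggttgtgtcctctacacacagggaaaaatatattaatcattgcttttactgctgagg
Col5a1 upstream: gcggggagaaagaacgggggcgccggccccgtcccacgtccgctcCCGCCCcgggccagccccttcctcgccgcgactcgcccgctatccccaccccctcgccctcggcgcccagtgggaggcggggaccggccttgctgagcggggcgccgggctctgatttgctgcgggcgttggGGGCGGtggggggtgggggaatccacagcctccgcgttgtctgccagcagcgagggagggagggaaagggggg
Col7a1 upstream: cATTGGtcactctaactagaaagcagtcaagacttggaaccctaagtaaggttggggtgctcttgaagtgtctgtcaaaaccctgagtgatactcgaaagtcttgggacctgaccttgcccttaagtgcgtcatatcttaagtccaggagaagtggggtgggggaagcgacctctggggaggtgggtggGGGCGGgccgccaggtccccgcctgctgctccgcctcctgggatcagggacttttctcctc
Col6a5 upstream: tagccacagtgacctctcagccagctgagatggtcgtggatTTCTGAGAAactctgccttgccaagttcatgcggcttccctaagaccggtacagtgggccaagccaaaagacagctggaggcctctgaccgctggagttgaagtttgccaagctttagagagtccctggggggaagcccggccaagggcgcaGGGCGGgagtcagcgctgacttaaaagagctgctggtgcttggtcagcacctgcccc
The fibrillar genes *Col3a1* and *Col5a1* both rose, with windows that differ in these letters.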

How the data were processed

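According to the methods and the submitters' processing notes, the authors trimmed reads (cutadapt 1.18), mapped them to mm10 RNA (Bowtie2 2.2.5) and deposited tag counts for each gene symbol without normalization; R 3.5.1 is also named. How they treated tags mapping to several genes is not stated. The methods' thresholds of adjusted p under 0.05 and fold change over 2 were used here. The methods' sentence on 10 tags, read literally, excludes genes at or above that number and names no number of libraries; it was read here as keeping genes with 10 tags in 3 or more libraries. The fit was made with edgeR 4.0.16 in R 4.3.3 on 6 libraries, TMM and the quasi-likelihood test. Alternatives were RLE, library size only, iterative TMM (the scheme of TCC, also with the exact test), DESeq2 1.42.0, no filter, a filter of 5 tags, the adjusted p alone, a replicate block and each library left out. Leaving out libraries on the genes passing the filter with all 6 was added after seeing the data. Replicate numbers come from the labels. Same-numbered libraries deviated together from their group means (r of 0.23, 0.18 and 0.26 over 5063 genes). The main fit does not use these numbers, and the replicate block was run as an alternative. Standard errors are the log2 fold change over the root of the F statistic. Named genes are the called collagen chains, up to 3 with the most tags per class, called genes of the biosynthesis and receptor lists, and *Il11*; others, and the ratios of chains that are not neighbours, were chosen after their values were seen. Members and lists were chosen with earlier results of these data known. Positions come from the mouse GENCODE release M21. One of the lists of cell type markers is not reported here.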

Additional observations from a re-analysis of the deposited data

How the results depend on the processing

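Over 21 alternatives, *Col12a1*, *Col14a1*, *Col18a1* and *Col6a5* kept their calls in each, and *Col3a1*, *Col5a1*, *Col5a2*, *Col4a1*, *Col4a2*, *Col6a4* and *Col23a1* lost theirs in at least 1. *Col7a1* and *Col20a1*, which passed the filter through their higher group alone, are left out of these names. The counts of higher and lower chains that follow include both wherever they were called, although their difference was fixed by the filter. Of the 12 chains not called, 8 kept that status and their direction throughout. With the replicate block 8 chains were higher (*Col7a1* among them) and 5 lower (*Col20a1* among them), and no call of a collagen chain changed. Scaling by library size alone left 5 chains higher, DESeq2 left 3 lower, and the adjusted p alone gave 638 higher genes in all. Without a filter the median log2 fold change was -0.10 for basement membrane, -0.66 for type VI and -0.22 for all chains, since chains with few tags then enter. Leaving out 1 library gave 4 to 8 higher and 2 to 5 lower chains, 341 to 579 lower genes in all, medians of 0.75 to 1.07 (fibrillar), -0.55 to -0.052 (type VI), 0.22 to 0.49 (all chains) and -1.16 to -0.059 (FACIT), and log2 fold changes of -0.23 to 0.16 for *Col4a5* and -1.20 to 0.13 for *Col8a1*. On the genes that pass the filter with all 6 libraries, chosen after seeing the data, 5 chains were higher and 2 lower without EGFP⁺ replicate 1, 3 were lower without EGFP⁻ replicate 1, 2 or 3, 483 to 580 genes in all were lower, the FACIT median was -1.16 to -0.62, and the fibrillar median was 0.75 without EGFP⁺ replicate 2. On these genes *Col4a5* was at 0.12 without EGFP⁻ replicate 2 and at 0.16 without EGFP⁺ replicate 1, and *Col8a1* at 0.15 without EGFP⁻ replicate 3. The cause of these changes was not tested beyond the filter. Of the 17 chains under the filter, 10 had under 5 tags in every library.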
